A study of Mus musculus with 6 samples.

Results

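The genes described here encode 10 enzymes and helper proteins that make leukotrienes and prostaglandins, and their messenger RNA was measured in mouse skin. They were taken by gene symbol from a table of 18939 genes, in which all 10 were present (Pla2g4a, Alox5, Alox5ap, Lta4h, Ltc4s, Ptgs1, Ptgs2, Ptges, Hpgds and Ptgds). The 6 skin libraries fall into 2 groups of 3. The CKO libraries (replicates 1, 2 and 5) carry the genotype label of a basophil VAMP7 conditional knockout. The libraries titled FLOX (replicates 2, 3 and 5) are labelled wild type. VAMP7 is a protein of vesicle fusion, and basophils are rare allergy-associated granulocytes. According to the series title all mice belonged to an MC903-OVA model, in which skin is inflamed by a vitamin D analogue (MC903, calcipotriol) and given ovalbumin as antigen. The Cre driver that removes Vamp7, the age and sex of the mice, the dosing and the sampling day were not in the sources used here, and untreated skin was not analysed here. The comparison asks how inflamed skin differs when its basophils lack VAMP7.

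Leukotrienes and prostaglandins are lipid mediators made from arachidonic acid, which cytosolic phospholipase A2 releases from membranes. In the leukotriene branch 5-lipoxygenase, helped by the membrane protein FLAP, forms leukotriene A4, which is then turned into the neutrophil attractant leukotriene B4 or into leukotriene C4, the parent of the cysteinyl leukotrienes. In the prostaglandin branch cyclooxygenases form prostaglandin H2, from which terminal synthases make prostaglandin E2, prostaglandin D2 and others. Granulocytes, mast cells and macrophages are the main users of the 5-lipoxygenase branch, whereas keratinocytes, fibroblasts and many other skin cells make prostaglandins.

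Promoters are shown for the genes whose CKO values all lay below the FLOX values, as described further on. Of the 10 genes, 9 have an entry in the RefSeq promoter table of build GRCm38.p6 and Alox5ap has none. The 250 bases before the annotated start are printed 5′ to 3′ for Alox5, Ptgs2 and Pla2g4a, at the outermost start listed for Pla2g4a. Capitals mark letters that match a searched motif on either strand.
Alox5, chr6:116461179-116461428, minus strand: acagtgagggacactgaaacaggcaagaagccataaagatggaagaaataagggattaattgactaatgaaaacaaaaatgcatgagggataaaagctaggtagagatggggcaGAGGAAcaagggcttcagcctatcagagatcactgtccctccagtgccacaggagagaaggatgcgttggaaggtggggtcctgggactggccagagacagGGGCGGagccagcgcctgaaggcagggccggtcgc
Ptgs2, chr1:150099781-150100030, plus strand: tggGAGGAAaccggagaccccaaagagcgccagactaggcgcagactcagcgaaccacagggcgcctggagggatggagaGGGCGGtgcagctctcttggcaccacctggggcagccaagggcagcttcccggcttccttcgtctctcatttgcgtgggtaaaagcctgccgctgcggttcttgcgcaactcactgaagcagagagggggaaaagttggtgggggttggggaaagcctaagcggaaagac
Pla2g4a, chr1:149961291-149961540, minus strand: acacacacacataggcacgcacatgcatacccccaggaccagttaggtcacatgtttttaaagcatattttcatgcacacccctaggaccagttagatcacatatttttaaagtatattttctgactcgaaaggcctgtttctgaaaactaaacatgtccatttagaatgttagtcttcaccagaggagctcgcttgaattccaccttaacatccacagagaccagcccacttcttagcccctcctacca
The motifs searched on both strands were the TATA box (TATAAA), the GC box bound by Sp1-type factors (GGGCGG), the AP-1 site (TGANTCA), the E-box (CACGTG) and the core of the PU.1 site (GAGGAA). In Alox5 the window held a GAGGAA core at 136 to 131 bases before the start and a GC box at 35 to 30 bases. Ptgs2 held a GAGGAA core at 247 to 242 bases and a GC box at 170 to 165 bases. In Pla2g4a none of these letters was found, so no searched motif was common to the 3 windows. Over the 9 windows searched, GAGGAA was found in 6 (Alox5, Hpgds, Lta4h, Ptges, Ptgs1 and Ptgs2) and the GC box in 3 (Alox5, Ptges and Ptgs2). Of all 32851 windows of this length, 23.3% and 32.7% held them. Both thus also occurred in genes whose groups overlapped. AP-1 letters were found in 1 of the 9 windows, that of Ptgds (6.75% of all windows). TATAAA (12.4% of all windows) and CACGTG (6.02%) were in none of the 9. No match overlapped with that of another motif.

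Values are FPKM, fragments scaled to gene length and to the mapped fragments of the library, so that levels of different genes can be set side by side. In FLOX skin the 10 genes spanned from a mean of 3.66 FPKM for Ptgds to 191 FPKM for Alox5ap. Alox5ap was the most abundant and Ptges the next in either group, and their ranges over libraries did not overlap with each other or with the gene ranked after them. Ptgs2 came next to Ptges in FLOX skin (43.9 FPKM) but below Ptgs1 and Lta4h in CKO skin (18.6 FPKM). Its range overlapped with that of Lta4h above it and Hpgds below it in CKO skin, but with neither neighbour in FLOX skin. Lta4h and Ptgs1 could not be ordered within either group. In FLOX skin the ranges of Pla2g4a and Alox5 also overlapped, as did, in CKO skin, those of Alox5 with Ltc4s and of Ltc4s with Ptgds. Every gene reached the level needed for testing (at least 1 FPKM in at least 3 libraries).

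**Figure D1:**
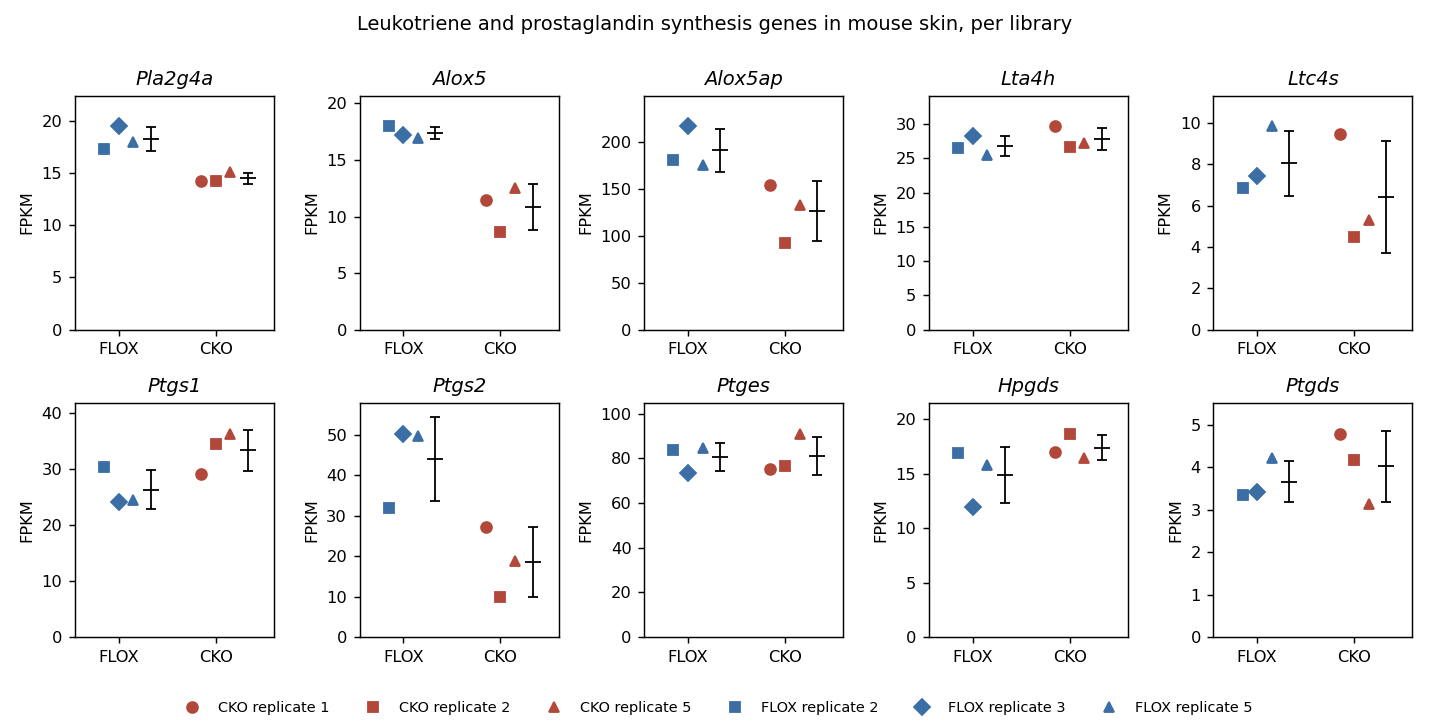
FPKM of each gene (vertical axes, each from 0) in the 3 FLOX and 3 CKO libraries; symbols stand for libraries, and the horizontal dash and bar beside each group for its mean and SD. CKO values lie below all FLOX values in Pla2g4a, Alox5, Alox5ap and Ptgs2, and the groups overlap in the other 6 genes.

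Differences between the groups were tested with limma on log2(FPKM + 1) over all 12994 genes that reached that level, and are given as CKO minus FLOX. None of the 10 genes passed at a Benjamini-Hochberg adjusted p under 0.05, a call made for 0.954% of all tested genes. Before adjustment, at p under 0.05, 4 were lower in CKO skin (Alox5, Pla2g4a, Ptgs2 and Alox5ap) and 1 was higher (Ptgs1), against 21.6% of all tested genes in either direction. CKO libraries all lay below the FLOX libraries for 4 of the 10, where 11.4% of tested genes did so, and all lay above for none, where 15.5% did. The median log2 fold change of the 10 was -0.15, beside 0.03 over all tested genes. Each of the 4 separated genes had p = 0.1 in an exact permutation test (two-sided), which cannot go lower with 3 libraries against 3.

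Pla2g4a encodes cytosolic phospholipase A2, the enzyme that frees arachidonic acid for both branches. It measured 14.21, 14.2 and 15.12 FPKM in CKO replicates 1, 2 and 5 and 17.29, 19.5 and 17.98 FPKM in FLOX replicates 2, 3 and 5. All CKO values were lower than all FLOX values, and the spread within each group was small. The means were 14.5 ± 0.528 and 18.3 ± 1.13 FPKM (SD, n = 3 each), a decrease of 20.5%. The log2 fold change was -0.31 (SE 0.08, 95% interval -0.49 to -0.13, limma adjusted p = 0.0781), so the difference did not pass.

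Alox5 encodes 5-lipoxygenase, the first enzyme of the leukotriene branch. CKO skin had 11.44, 8.59 and 12.5 FPKM and FLOX skin 17.99, 17.22 and 16.96 FPKM. The FLOX values lay close together and well above the highest CKO value, that of replicate 5. With means of 10.8 ± 2.02 and 17.4 ± 0.536 FPKM (SD, n = 3 each), Alox5 had the smallest p of the 10 genes (log2 fold change -0.65, SE 0.13, 95% interval -0.95 to -0.35, limma adjusted p = 0.0539). It narrowly missed the threshold, and it passed without CKO replicate 5 (-0.75, limma adjusted p = 0.0387) and with libraries weighted by quality (-0.60, limma adjusted p = 0.0478). Without CKO replicate 2, the library with the lowest Alox5, the value was -0.50 (limma adjusted p = 0.107). Over all genes, 417 passed without CKO replicate 5, 274 with library weights and 7 without CKO replicate 2, against 124 in the main fit.

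Alox5ap encodes FLAP, the nuclear membrane protein that presents arachidonic acid to 5-lipoxygenase. It measured 154.56, 91.99 and 132.76 FPKM in CKO skin and 180.47, 217 and 175.8 FPKM in FLOX skin. The groups did not overlap, and CKO replicate 2 again held the lowest value. Means were 126 ± 31.8 and 191 ± 22.6 FPKM (SD, n = 3 each), a log2 fold change of -0.62 (SE 0.19, 95% interval -1.05 to -0.18, limma adjusted p = 0.114). Without CKO replicate 2 it was -0.41 (limma adjusted p = 0.187). GENCODE M21 places an antisense gene with a provisional name over 13.3% of the exon bases of Alox5ap, and since the labels do not say that the libraries keep strand, reads of the antisense gene could not be separated. Across the libraries Alox5ap held 10.03 to 13.5 times the FPKM of Alox5. The log2 ratio of Alox5ap over Alox5 was 3.53 ± 0.197 in CKO and 3.45 ± 0.178 in FLOX skin (SD, n = 3 each, exact two-sided permutation p = 0.5, Benjamini-Hochberg adjusted over 5 ratios 0.625).

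For the enzymes that divide leukotriene A4 between its products, the groups overlapped. Lta4h, leukotriene A4 hydrolase, makes leukotriene B4 and is expressed in many cell types. It measured 29.71, 26.73 and 27.2 FPKM in CKO and 26.58, 28.32 and 25.48 FPKM in FLOX skin. The groups overlapped, with FLOX replicate 3 inside the CKO range, CKO replicate 1 above all FLOX values and FLOX replicates 2 and 5 below all CKO values. The means were 27.9 ± 1.6 and 26.8 ± 1.43 FPKM (SD, n = 3 each), and the 95% interval of the log2 fold change (0.06, SE 0.08) ran from -0.13 to 0.24 (limma adjusted p = 0.742). Ltc4s, leukotriene C4 synthase, joins leukotriene A4 to glutathione in mast cells, basophils, eosinophils and macrophages. It measured 9.48, 4.46 and 5.29 FPKM in CKO and 6.87, 7.45 and 9.84 FPKM in FLOX skin, so CKO replicate 1 lay among the FLOX values and CKO replicates 2 and 5 below them. The log2 fold change was -0.33 (SE 0.24) with a wide 95% interval of -0.90 to 0.23 (limma adjusted p = 0.476), and leaving out CKO replicate 1 gave -0.61 and leaving out CKO replicate 2 gave -0.14. An antisense gene covers 26.4% of the exon bases of Ltc4s in GENCODE M21, with the same limit on strand. The log2 ratio of Ltc4s over Lta4h was -2.20 ± 0.489 in CKO and -1.75 ± 0.327 in FLOX skin (SD, n = 3 each), and the groups overlapped (exact two-sided permutation p = 0.3, adjusted over 5 ratios 0.5).

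The 2 cyclooxygenase genes had fold changes of opposite sign. Ptgs1 encodes cyclooxygenase 1, the constitutive form. It measured 29.21, 34.47 and 36.32 FPKM in CKO and 30.33, 24.05 and 24.57 FPKM in FLOX skin. Only CKO replicate 1 and FLOX replicate 2 crossed. Means were 33.3 ± 3.69 and 26.3 ± 3.49 FPKM (SD, n = 3 each), with a log2 fold change of 0.33 (SE 0.12, 95% interval 0.05 to 0.61, limma adjusted p = 0.164), which did not pass. A provisional gene on the opposite strand covers 3.81% of its exon bases in GENCODE M21.

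Ptgs2 encodes cyclooxygenase 2, the form that cells make rapidly after cytokines or injury, and it had the largest fold change of the 10 genes. CKO skin measured 27.13, 9.83 and 18.9 FPKM and FLOX skin 32.02, 50.25 and 49.56 FPKM. The groups did not overlap, but the CKO values were spread widely, and the highest CKO value was close to the lowest FLOX value. Means were 18.6 ± 8.65 and 43.9 ± 10.3 FPKM (SD, n = 3 each), so the FLOX mean was 2.36 times the CKO mean. The log2 fold change was -1.27 (SE 0.34, 95% interval -2.06 to -0.49, limma adjusted p = 0.0850) and did not pass. It was -0.90 without CKO replicate 2 (limma adjusted p = 0.165) and -1.59 without CKO replicate 1 (limma adjusted p = 0.0623).

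Within each library the balance of the cyclooxygenases lay on different sides in the groups. FLOX libraries held 1.06, 2.09 and 2.02 times as much Ptgs2 as Ptgs1, and CKO libraries 0.929, 0.285 and 0.520 times. In every FLOX library Ptgs2 was the more abundant, and in every CKO library Ptgs1. The log2 ratio was -0.95 ± 0.852 in CKO and 0.72 ± 0.555 in FLOX skin (SD, n = 3 each), a difference of -1.67 that does not depend on how the libraries are scaled. Its exact permutation p (two-sided) was 0.1, again the lowest possible, and 0.5 after adjustment over the 5 ratios computed. Without CKO replicate 2 the difference was -1.24, and without CKO replicate 1 it was -2.09.

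**Figure D2:**
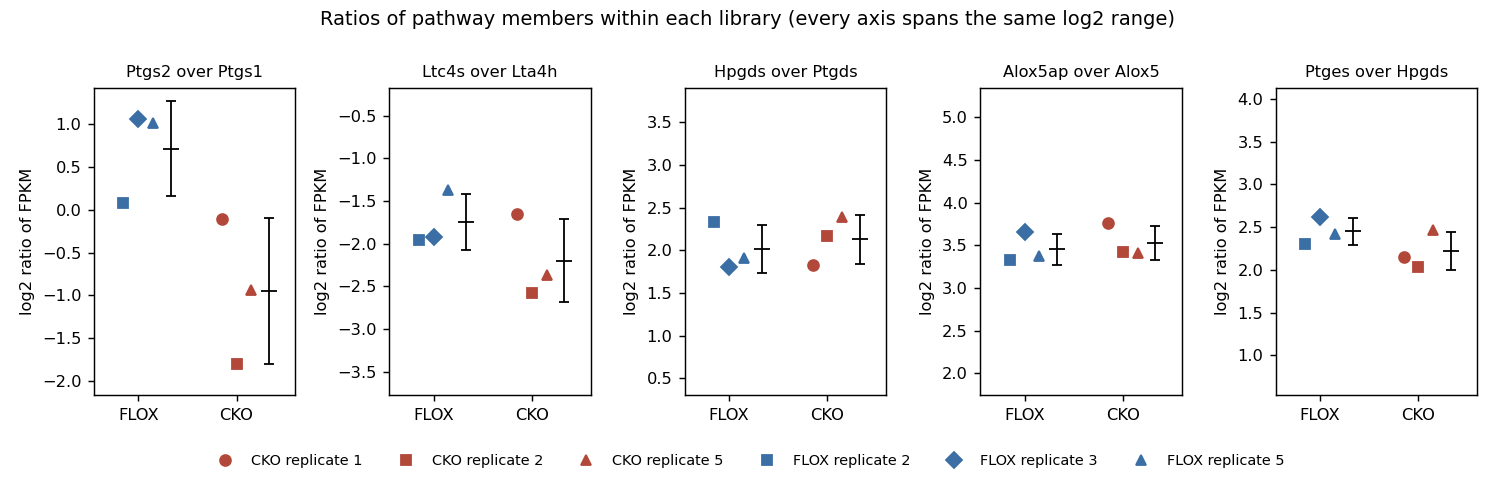
Log2 ratio of the FPKM of 2 genes within each library (vertical axes, each spanning the same range) for 5 pairs of genes; symbols stand for libraries, and the dash and bar for mean and SD. Ptgs2 over Ptgs1 is above 0 in all FLOX libraries and below 0 in all CKO libraries, and the other 4 ratios overlap.

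The terminal prostaglandin synthases showed no difference that passed. Ptges, the inducible microsomal synthase of prostaglandin E2 that works with cyclooxygenase 2, measured 75.33, 76.69 and 91 FPKM in CKO and 83.7, 73.53 and 84.64 FPKM in FLOX skin. Its group means were nearly equal, at 81.0 ± 8.68 and 80.6 ± 6.16 FPKM (SD, n = 3 each), and the 95% interval of the log2 fold change (0.0044, SE 0.10) was -0.23 to 0.24. The sign of that value turned with the scaling of the libraries (-0.037 after median-ratio scaling).

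Hpgds is the glutathione-dependent prostaglandin D2 synthase of mast cells, type 2 T cells and macrophages. It measured 16.99, 18.67 and 16.46 FPKM in CKO and 16.92, 11.96 and 15.77 FPKM in FLOX skin. FLOX replicate 3 held the lowest value, and CKO replicate 5 lay below FLOX replicate 2. The log2 fold change was 0.22 (SE 0.13, 95% interval -0.08 to 0.52, limma adjusted p = 0.371), and 0.08 without FLOX replicate 3. Ptgds, the unrelated lipocalin-type prostaglandin D2 synthase, was the scarcest of the 10. It measured 4.79, 4.16 and 3.13 FPKM in CKO and 3.35, 3.42 and 4.21 FPKM in FLOX skin, overlapping groups with a log2 fold change of 0.10 (SE 0.14, 95% interval -0.23 to 0.44, limma adjusted p = 0.744). Hpgds exceeded Ptgds in every library, by 3.50 to 5.26 times, with log2 ratios of 2.13 ± 0.286 in CKO and 2.02 ± 0.282 in FLOX skin (SD, n = 3 each, exact two-sided permutation p = 0.7, adjusted 0.7). Ptges exceeded Hpgds by 4.11 to 6.15 times, with overlapping groups (exact two-sided permutation p = 0.3, adjusted over 5 ratios 0.5).

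**Figure D3:**
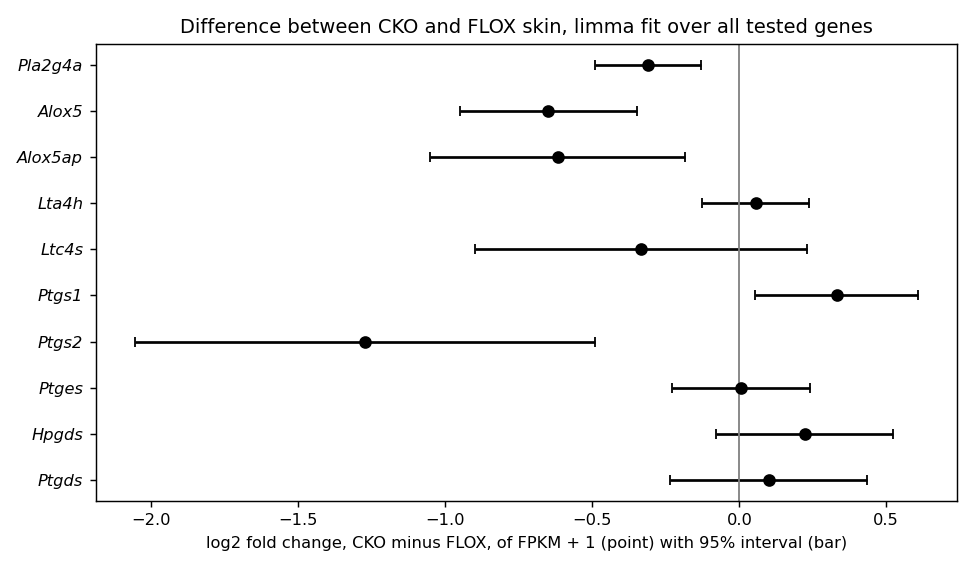
Log2 fold change of FPKM + 1, CKO minus FLOX (horizontal axis), for each gene (rows, in pathway order); points are limma estimates and bars 95% intervals not adjusted for the number of genes. The intervals of Pla2g4a, Alox5, Alox5ap and Ptgs2 lie below 0 and that of Ptgs1 above 0, and no gene passed after adjustment over all tested genes.

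**Figure D4:**
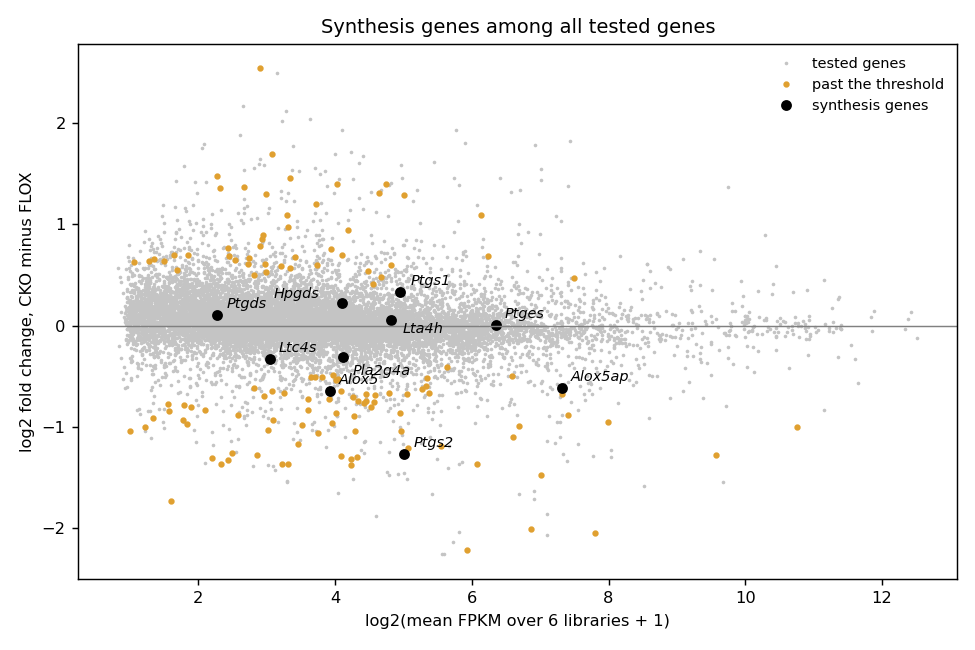
Log2 fold change, CKO minus FLOX (vertical axis), against log2 of the mean FPKM over 6 libraries + 1 (horizontal axis) for the 12994 tested genes (grey), the 124 past the threshold (orange) and the 10 synthesis genes (black). Ptgs2, Alox5 and Alox5ap lie at the lower edge of the grey cloud near genes past the threshold, and the other 7 lie within it.

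By profile over the 6 libraries, only Alox5ap and Ptgs2 ranged over at least 1 on the log2 scale (1.23 and 2.24). Likeness was measured as the root mean square difference between log2(FPKM + 1) profiles centred on their own means. It was sought among tested genes with a mean of at least 5 FPKM and no provisional Gm or Rik name. The likest genes to Alox5ap were Crabp1, a retinoic acid binding protein gene (difference 0.06), and Gmfg, a regulator of actin branching in blood cells (0.07). Those likest to Ptgs2 were Cstdc4, a cystatin domain gene (0.14), and Myl7, a myosin light chain gene (0.17).

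Markers of several cell types differed between the same libraries. In CKO skin the summed FPKM of 7 neutrophil markers ran from 2574 to 3416, and in FLOX skin from 4452 to 6153. Most of this sum was S100a8 and S100a9 (FLOX means 2917 and 2310 FPKM), and S100a8 did not pass. All 7 had every CKO library below every FLOX library, and 5 of the 7 were past the threshold as lower. The sum of 5 basophil markers was 47.6 to 64.4 in CKO and 123.9 to 161 in FLOX skin, with 2 of 5 past the threshold as lower. All 5 had lower means in CKO skin. In 4 of them all CKO libraries lay below all FLOX libraries, where 11.4% of tested genes did so. Mcpt8 made up most of the FLOX sum (mean 98.9 FPKM), and Fcer1a overlapped between the groups. Eosinophil markers summed to 14.3 to 21.4 and 22.5 to 43.6, with none of the 4 tested past the threshold, and their defining gene Epx was listed at 0 in 4 of the 6 libraries. The summed monocyte and macrophage markers overlapped between the groups (3345 to 3863 and 3809 to 4154), but all 8 had lower means in CKO skin and 5 had all CKO libraries below all FLOX libraries, with none past the threshold. Mast cell markers lay above (597 to 649 in CKO and 460 to 564 in FLOX), as did keratinocyte markers (6926 to 9442 and 5457 to 6039) and skeletal muscle markers (513 to 1396 and 167 to 393). None of 7 mast cell and 7 keratinocyte markers passed, and 1 of 10 skeletal muscle markers did. The largest mast cell markers, Mcpt4 and Cpa3, overlapped between the groups. So did Krt14, the largest keratinocyte marker (means 3946 in CKO and 3583 FPKM in FLOX), and Dsg3 had a slightly lower mean in CKO skin. In 5 of each of these 2 lists all CKO libraries lay above, where 15.5% of tested genes did so. The neutrophil, basophil and eosinophil sums and 5 of the monocyte and macrophage markers were low in all CKO libraries, as were Alox5, Alox5ap, Ptgs2 and Pla2g4a. The part of these cell types in the differences was not tested. In such whole-tissue libraries, fewer cells of a type and less RNA per cell cannot be told apart.

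The libraries carried the keratinocyte, fibroblast and leukocyte markers of inflamed skin. Vamp7, labelled as a conditional knockout in basophils, stood at 19.5 ± 0.352 FPKM in the CKO and 20.9 ± 0.565 FPKM in the FLOX libraries (SD, n = 3 each, limma adjusted p = 0.475). Across the libraries FPKM summed to 556412 to 594987. The depth in reads is unknown, so no counting interval or floor is given. CKO replicate 2 stood farthest from the others on the first principal component (31.07, against 6.03 to 14.9 in the other CKO libraries and -18.88 to -15.46 in FLOX), which is why values without it are given above. It also had the highest skeletal muscle sum, 1396.

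The rest of the eicosanoid pathway was read from 7 lists with 57 genes in the table, of which 48 could be tested. None passed. Some genes named below passed without CKO replicate 1 or 5, in each case the CKO library nearest to the FLOX values. Over all genes 134 and 417 passed in these fits, against 124 with all 6 libraries. No pathway gene passed without CKO replicate 2 or without a FLOX library. Before adjustment 15 had a p under 0.05, 10 with higher and 5 with lower means in CKO skin, beside 21.6% of all tested genes in either direction. The median log2 fold change was 0.08, beside 0.03 over all tested genes. Among other phospholipases A2, 10 of 14 tested had higher means in CKO skin, as did 7289 of all 12994 tested genes. In 6 of the 14 all CKO libraries lay above all FLOX libraries, where 15.5% of all tested genes did so. Pla2g5, a secreted phospholipase, had means of 21.4 ± 1.82 FPKM with CKO and 15.0 ± 1.61 FPKM with FLOX (log2 fold change 0.48, limma adjusted p = 0.0612). Pla2g2f, a secreted form of upper epidermis, measured 162 ± 18.1 and 121.8 ± 3.08 FPKM (0.40, limma adjusted p = 0.0727). The lysosomal phospholipase gene Pla2g15 had the opposite sign, with 23.2 ± 3.23 and 32.5 ± 1.57 FPKM (-0.47, limma adjusted p = 0.0668), and passed without CKO replicate 5 (-0.56, limma adjusted p = 0.0470). Plaat3, an adipose phospholipase gene, measured 18.7 ± 4.77 and 12.2 ± 0.125 FPKM and did not pass (0.55, limma adjusted p = 0.109). It is named because it passed in that same fit without CKO replicate 5 (0.72, limma adjusted p = 0.0387). Pla2g7, which breaks down platelet-activating factor, measured 126 ± 30.3 and 155 ± 17.3 FPKM in overlapping groups.

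The other lipoxygenases act mainly in epidermis or macrophages and do not carry out the 5-lipoxygenase step. Alox12e, an epidermal 12-lipoxygenase gene of mice, had the largest difference of any pathway gene. It measured 20.5, 45.2 and 28.91 FPKM in CKO and 13.44, 7.14 and 6.7 FPKM in FLOX skin, without overlap. The log2 fold change was 1.68 (SE 0.32, limma adjusted p = 0.0515), which did not pass, while without CKO replicate 1 it did (1.94, limma adjusted p = 0.0494). Alox12b and Aloxe3, which act in series to build the lipid barrier of the stratum corneum, measured 32.0 ± 4.94 and 26.5 ± 1.53 FPKM, and 11.2 ± 2.06 and 8.1 ± 1.61 FPKM, in CKO and FLOX skin. The groups overlapped in each. Of 6 lipoxygenases in this list, 5 had higher and 1 had lower means in CKO skin, while 7289 of all 12994 tested genes had higher means. Alox8, 1 of the 5, had nearly equal means (17.65 in CKO and 17.54 FPKM in FLOX).

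Enzymes that convert or inactivate leukotrienes split in direction, with 3 higher and 4 lower means among 7 tested. Cyp4f18, a hydroxylase of leukotriene B4 in mouse neutrophils, measured 28.1, 17.12 and 23.13 FPKM in CKO and 38.88, 39.46 and 35.51 FPKM in FLOX skin. All CKO values lay below the FLOX values, as for Alox5, and the log2 fold change was -0.74 (SE 0.16, limma adjusted p = 0.0645). It passed without CKO replicate 1 (-0.90, limma adjusted p = 0.0494). Dpep1, a dipeptidase that turns leukotriene D4 into leukotriene E4, measured 44.9 ± 9.65 and 27.3 ± 0.807 FPKM, with all CKO libraries above (0.67, SE 0.15, limma adjusted p = 0.0650). Without CKO replicate 5 it passed (0.86, limma adjusted p = 0.0236). Ptgr1, a reductase that inactivates leukotriene B4 and prostaglandins, was the most abundant of the list at 51.1 ± 2.35 and 47.0 ± 0.904 FPKM.

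Several receptors of the mediators were near or below the level for testing. Of 9 prostanoid receptor genes 4 were below the level for testing, among them those of prostaglandin D2, Ptgdr (0.33 and 0.38 FPKM on average in CKO and FLOX skin) and Ptgdr2 (0.173 and 0.303 FPKM). The prostaglandin E2 receptor genes Ptger4 and Ptger2 lay below FLOX in all CKO libraries, at 8.10 ± 1.17 and 11.1 ± 1.53 FPKM for Ptger4 (log2 fold change -0.41, limma adjusted p = 0.128) and 1.12 ± 0.374 and 1.93 ± 0.123 FPKM for Ptger2 (-0.48, limma adjusted p = 0.105). The prostacyclin receptor gene Ptgir measured 7.51 ± 0.349 and 9.86 ± 2.51 FPKM in overlapping groups. Cysltr1, a cysteinyl leukotriene receptor gene of myeloid cells, measured 6.24, 5.12 and 8.06 FPKM in CKO and 10.52, 11.73 and 9.41 FPKM in FLOX skin. It did not overlap between the groups (-0.64, SE 0.15, limma adjusted p = 0.0712) and passed when CKO replicate 5 was left out (-0.79, limma adjusted p = 0.0368). Ltb4r1, the high-affinity leukotriene B4 receptor gene of neutrophils, measured 21.4 ± 3.80 and 24.5 ± 3.38 FPKM and overlapped (-0.19, limma adjusted p = 0.487).

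None of the other prostanoid synthases or of the breakdown and transport genes passed. Some of their intervals were wide, as for Ptgis (log2 fold change 0.35, 95% interval -0.22 to 0.91). Among 8 synthases none had separated groups. Ptges3, a co-chaperone that also has prostaglandin E synthase activity, had means of 91.6 ± 6.85 FPKM with CKO and 96.4 ± 8.0 FPKM with FLOX. Akr1b3, an aldose reductase with prostaglandin F synthase activity, measured 62.4 ± 4.84 and 65.7 ± 1.59 FPKM. The carbonyl reductase gene Cbr1 (15.2 ± 2.05 and 13.2 ± 0.782 FPKM) and the prostacyclin synthase gene Ptgis (23.6 ± 8.19 and 18.0 ± 4.28 FPKM) had the smallest p of the list, with limma adjusted p = 0.362 and 0.460. Hpgd, the dehydrogenase that starts prostaglandin breakdown, measured 17.4 ± 1.09 and 15.6 ± 0.493 FPKM without overlap (0.14, limma adjusted p = 0.330). The reductase gene Ptgr2 measured 15.5 ± 2.62 and 15.8 ± 2.45 FPKM, and Abcc4, an exporter of prostaglandins, 6.22 ± 0.285 and 5.54 ± 0.499 FPKM, and both overlapped between the groups.

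**Figure D5:**
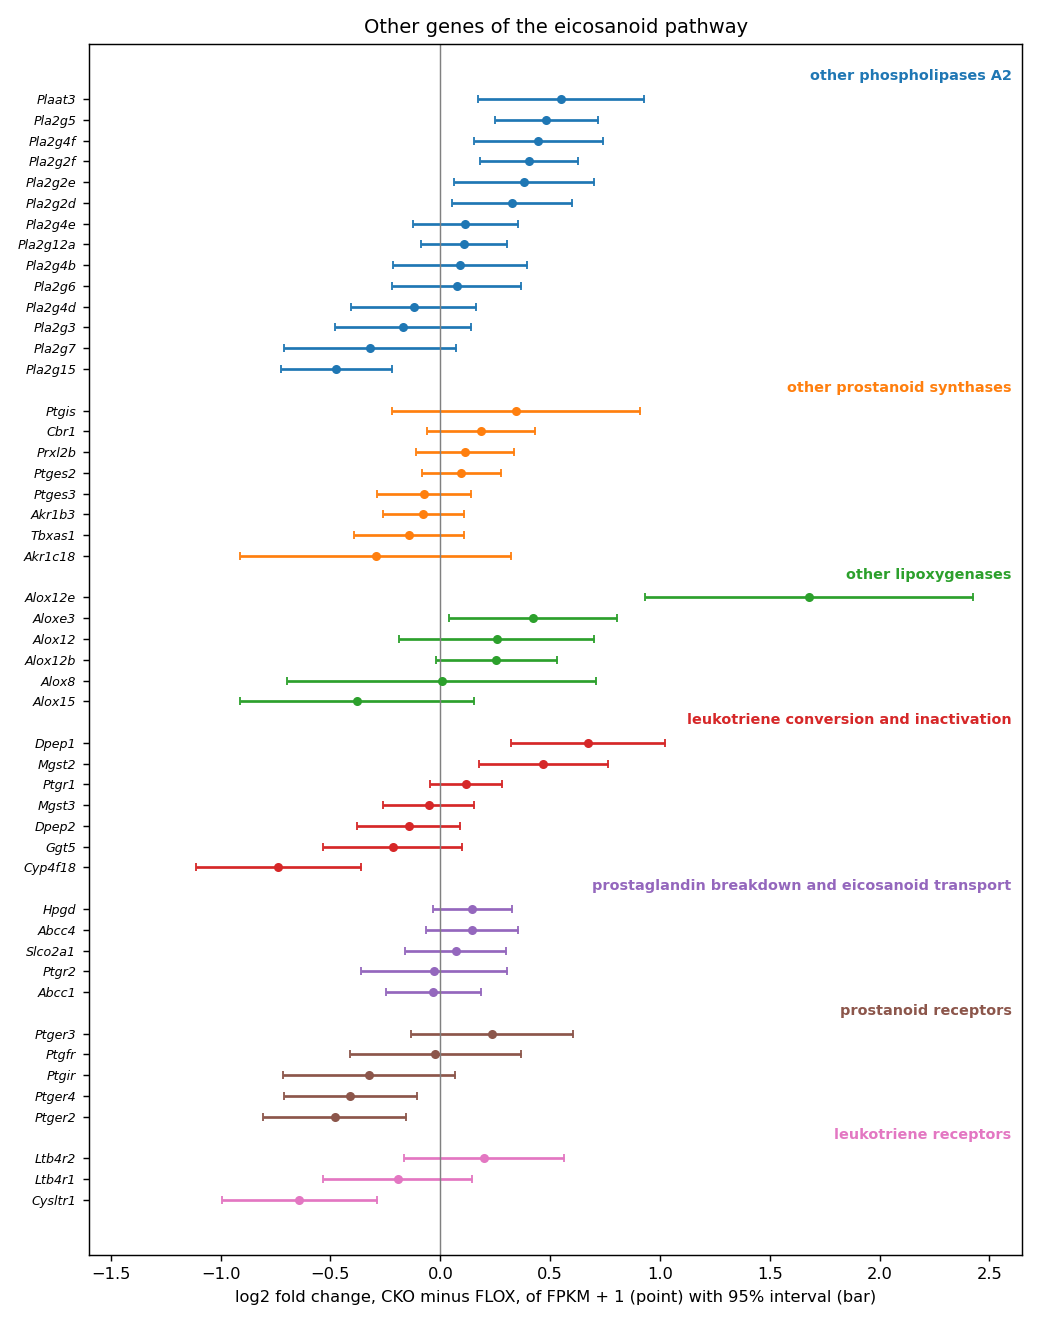
Log2 fold change of FPKM + 1, CKO minus FLOX (horizontal axis), for the 48 tested genes of 7 pathway lists (rows, coloured by list); points are limma estimates and bars 95% intervals not adjusted for the number of genes. Alox12e lies farthest to the right at 1.68 and Cyp4f18 farthest to the left at -0.74.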

How the data were processed

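Libraries of oligo(dT)-purified mRNA from skin were read as single-end fragments, per the labels' protocols. The submitters' processing notes name HISAT, without a version, as the aligner. Read counter, build and gene models are likewise not given in the sources used here. The deposited unit is FPKM, per the file headers, with 2 decimals. FPKM depends on the other genes of a library, so a change of abundant transcripts shifts all values. A count model had been foreseen only for a file of read counts. Since the file holds FPKM, limma 3.58.1 in R 4.3.3 was used (log2(FPKM + 1), two-sided, intensity trend in the empirical Bayes step, no covariate, Benjamini-Hochberg adjustment over 12994 genes at or above 1 FPKM in at least 3 libraries, threshold 0.05). Fold changes on this scale understate those of low genes. The fit was tested on simulated data. The labels do not say that libraries came from separate animals, and p-values therefore reflect the spread among these samples alone, possibly a technical one.

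The 10 genes, the pathway and marker lists and the tests were chosen with earlier results of these data known. Named genes were the 10, and of each pathway list the 2 with the highest mean, the 2 with the smallest p and any past the threshold. Ptgdr, Ptgdr2, Plaat3 and Epx were named after their values were seen, as were the other cell type marker genes named. The listed genes Pla2g10, Oxgr1, Tpsab1 and Trac were not analysed here. The lists for T cells, Langerhans cells, fibroblasts, endothelium, smooth muscle and adipocytes overlapped between the groups in summed FPKM. That for Schwann cells and melanocytes was higher in CKO skin (54.3 to 65.0 against 35.6 to 50.5). Most of the Langerhans cell sum was H2-Ab1, which overlapped. The list's other genes lay higher in all CKO libraries without passing, Cd207 (means 11.8 against 6.75 FPKM) and Epcam (31.85 against 18.9 FPKM). Promoters come from RefSeq, build GRCm38.p6. Tried as alternatives were no filter and a filter at 5 FPKM, pseudocounts of 0.1 and 5, other scalings, other empirical Bayes settings, library weights, the replicate number as a block, and leaving out each library.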

Additional observations from a re-analysis of the deposited data

How the results depend on the processing

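The fold changes of the 10 genes kept their direction under all alternatives run, except those of Ptges and Ptgds, which lie near 0. Ptges was -0.037 after median-ratio scaling, -0.011 with the replicate block, and from -0.081 to 0.054 when single libraries were left out. Ptgds was -0.044 with the replicate block and from -0.0087 to 0.24 with single libraries left out, and it fell below the filter at 5 FPKM. Of the 10, 1 passed in each of 3 alternatives. Alox5 passed with library weights (-0.60) and without CKO replicate 5, with a range of -0.75 to -0.50 over left-out libraries and of adjusted p from 0.0387 to 0.168 over all alternatives. Ptgs2 passed with the replicate block (-1.48, limma adjusted p = 0.0109), with adjusted p from 0.0109 to 0.205 over all alternatives. For every gene, the fit with the block draws its fold change from replicates 2 and 5 alone. CKO replicate 1, which held the highest CKO value of Ptgs2, and FLOX replicate 3 have no library of their number in the other group. In the 4 genes with separated groups, leaving out CKO replicate 2 brought the value of Alox5ap from -0.62 to -0.41 and that of Ptgs2 from -1.27 to -0.90. With single libraries left out, the CKO minus FLOX difference in the log2 ratio of Alox5ap over Alox5 ranged from -0.037 to 0.18. For Hpgds over Ptgds this difference ranged from -0.020 to 0.27. The replicate numbers 2 and 5 are shared by the groups, and nothing in the labels says that they pair the samples. Deviations from the group means correlated at 0.132 for number 2 and -0.105 for number 5 across genes. Of the other pathway genes, 1 passed with the replicate block (Alox12e, 1.82, limma adjusted p = 0.0100), 2 without CKO replicate 1 (Alox12e and Cyp4f18) and 4 without CKO replicate 5 (Cysltr1, Dpep1, Pla2g15 and Plaat3), and 0 without each of the other 4 libraries. Over all genes 124 passed, 46 higher and 78 lower, and after median-ratio scaling 42 higher and 116 lower. That count was 1 without a filter, 187 with the filter at 5 FPKM, 0 after quantile normalization (1286 higher and 1346 lower before adjustment, at p under 0.05), 32 without trend, 10 with robust fitting, 274 with library weights, 219 with the replicate block, and 0 to 417 when single libraries were left out (0 without FLOX replicate 2, where 1119 were higher and 878 lower before adjustment, and 0 without FLOX replicate 3, where these were 1436 and 963). Without CKO replicate 5 the count was 417, without CKO replicate 1 it was 134, without CKO replicate 2 it was 7, and without FLOX replicate 5 it was 3. The causes of these shifts were not tested. With 3 libraries a group and no read counts, small differences of low genes such as Ltc4s and Ptgds cannot be resolved.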
